A study of Rattus norvegicus with 13 samples.

Results

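Aminoacyl-tRNA synthetases are the enzymes that attach each amino acid to its transfer RNA. The cytosolic enzymes supply the ribosomes that translate nuclear messages, and a largely separate set, also encoded in the nucleus, is imported into mitochondria and supplies the ribosomes there. Several cytosolic synthetases are held together with scaffold proteins in the multisynthetase complex. In mammalian cells many cytosolic synthetase genes are known targets of ATF4, a transcription factor that is made when amino acids run short or unfolded protein builds up, whereas the mitochondrial ones are generally not counted among its targets. The lens grows throughout life by laying down fibre cells filled with crystallins, so that protein synthesis is concentrated in its epithelium and outermost fibres.

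The 35 genes described here are 19 cytosolic and 16 mitochondrial synthetases, taken by name out of the 18166 genes that could be read from unshared probe sets. The list names no separate mitochondrial gene beside Gars1, Kars1 or Qars1, which were counted as cytosolic by name, whatever compartments their products serve. All 19 cytosolic genes and 15 of the 16 mitochondrial genes had such a probe set, and Iars2, the mitochondrial isoleucyl-tRNA synthetase, had none. A gene was kept for testing when its log2 signal reached 5 on at least 1 of the 13 arrays, as 6778 genes did. This kept 22 synthetases. They were 18 cytosolic genes, all but Farsa, and 4 mitochondrial genes, Hars2, Rars2, Tars2 and Wars2.

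Lenses of 6-week-old male Sprague Dawley rats were cultured whole, and their total RNA was hybridised to GeneChip Rat Gene 2.0 ST arrays, 1 array per sample. The 6 treatments were given to lenses cultured in 30 mM galactose for 6 days, with 1 array each. They were C646 at 40 µM and CBP30 at 10 µM, which target the acetyltransferases CBP and p300, CPTH2 at 80 µM, which targets Gcn5, C646+CPTH2, CBP30+CPTH2, and TH1834 at 50 µM, which targets Tip60. Galactose alone was given for 6 days (galactose Day 6, 3 arrays) or 4 days (galactose Day 4, 3 arrays), and the control was 1 array of a lens cultured for 4 days without galactose. Per the study's methods the inhibitors were added in DMSO after the opacity had formed, the fellow lens of each treated lens received DMSO only, and the control medium held water in place of galactose. There was no control lens of 6 days and no inhibitor without galactose. The labels do not say whether replicate lenses came from different rats, so p-values measure the spread between these samples only, and a group of 1 array was given the spread of the galactose replicates.

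A whole lens holds several cell types, and fewer cells of a type and less RNA per cell cannot be told apart in these signals. The fibre membrane channel gene Mip was at 10.64 to 11.54 on the 13 arrays. Of 7 kept fibre markers 2 were above the control at galactose Day 4 and 2 at Day 6, with medians of -0.21 and -0.28. On each day 1 fell at an adjusted p under 0.05 (limma), as 1.45% and 2.69% of all genes did. The fibre gene Gja3 had 7.85, 8.05 and 7.94 at galactose Day 4 and 7.63, 7.47 and 7.65 at Day 6, against 8.96 on the control. Vascular endothelium, pigment epithelium and photoreceptor markers with a probe set were all below the limit of 5, and 2 of 9 macrophage markers were kept. The mean of 9 lens epithelium markers was 5.02 to 6.80 on the inhibitor arrays, 5.93 to 6.68 at galactose Day 6, 5.70 to 6.55 at galactose Day 4 and 7.58 on the control. Replicate 1 of each galactose day stood apart from the other two, with a root mean square difference of 0.43 to 0.45 against 0.30 and 0.31 between replicates 2 and 3.

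The promoters of these genes were searched for a motif of the amino acid response. ATF4 and its partners bind composite elements whose core can be written TGATGCAA. In the RefSeq promoters of the GRCr8 assembly, from 250 bases before to 50 after each gene's start, this motif stood on either strand in 7 of the 17 cytosolic synthetases with an entry, among them Cars1, Iars1, Mars1, Nars1, Tars1 and Yars1, and in 0 of the 16 mitochondrial ones. Among all 27457 genes 0.827% held it. With any base allowed at the sixth position (TGATGNAA, which includes the first motif) the same 7 genes held it, against 4.16% of all genes. Rars1 and Gars1 have no entry. The sites of 5 of the 7 genes are shown. Each is given as 30 bases read along the gene's own strand, with the motif or its reverse complement in capitals. The distance given is that of the first capital from the annotated start.
Tars1, 27 bases upstream, chr2:62114811-62114840, minus strand: ctggcgtcccgTTGCATCAgctggttagct
Iars1, 24 bases upstream, chr17:15193658-15193687, minus strand: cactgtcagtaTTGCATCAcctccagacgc
Mars1, 17 bases upstream, chr7:65023752-65023781, minus strand: gcccgttccggTTGCATCAgcgtgggctcc
Cars1, 18 bases downstream, chr1:208225334-208225363, minus strand: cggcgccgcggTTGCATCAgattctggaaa
Yars1, 39 bases downstream, chr5:146820183-146820212, plus strand: cggagctacgagctcagcTGATGCAAcctg
Of these sites 3 lie upstream of the start, within 27 bases of it. A match of letters is a description of the sequence and does not show that a factor binds there.

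The first comparison asked how galactose culture changed the synthetases. Of the 22 kept genes 1 rose at galactose Day 4 and 0 fell, where 2.33% and 1.45% of all genes rose and fell (limma, Benjamini-Hochberg adjusted p under 0.05). At galactose Day 6, against the same control of 4 days, 0 rose and 1 fell, where 2.8% and 2.69% of all genes did. Galactose and 2 more days of culture cannot be told apart in that comparison. The gene that rose was Rars1, the arginyl-tRNA synthetase, and the gene that fell was Eprs1, whose protein joins the glutamyl and prolyl enzymes in a single chain. Both are members of the multisynthetase complex.

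Rars1 had log2 signals of 7.23, 6.99 and 6.68 at galactose Day 4 and 6.53, 6.86 and 6.99 at galactose Day 6, against 5.68 on the control. All 6 galactose arrays lay above the control array, and the days overlapped. The Day 4 difference was 1.28 ± 0.28 (SE, 95% interval 0.66 to 1.91, adjusted p = 0.0426) and the Day 6 difference 1.11 ± 0.28 (0.49 to 1.73, adjusted p = 0.0522). The Day 4 call was lost when galactose Day 4 replicate 1, 2 or 3 was left out (adjusted p = 0.0592, 0.102 and 0.0561), and also without galactose Day 6 replicate 2 or 3 (0.0724 and 0.0667), since the arrays share one estimate of the spread. At Day 6 Rars1 passed without galactose Day 6 replicate 1 (adjusted p = 0.0425) and without galactose Day 4 replicate 1 (0.0387).

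Eprs1 moved the other way. Its signals were 7.22, 7.86 and 7.95 at galactose Day 4 and 7.02, 6.87 and 7.34 at galactose Day 6, against 8.63 on the control. The control was the highest of the 13 arrays, as in 13.1% of all genes. The Day 6 difference was -1.56 ± 0.32 (SE, 95% interval -2.28 to -0.84, adjusted p = 0.029) and the Day 4 difference -0.96 ± 0.32 (-1.68 to -0.24, adjusted p = 0.119). The Day 6 call was lost without galactose Day 6 replicate 1 or 2 (adjusted p = 0.0536 and 0.0812) and without galactose Day 4 replicate 2 (0.0562). Most epithelium markers were also below the control at Day 6. Foxe3, which lens epithelial cells need to keep dividing, was at 4.56, 5.12 and 5.30 at galactose Day 6 against 7.01 on the control. It was called lower, as were Pdgfra and Aqp1 among the 9 markers. By its mean 1 of the 9 was higher, Cdh1, at 7.42, 8.74 and 8.96 against 8.18. From Day 4 to Day 6 Eprs1 differed by -0.60, whereas 7 of the 9 markers rose, with a median of 0.16. The part of the markers' cells in the Eprs1 differences was not tested.

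Further members lay near the threshold without passing it. Wars1, the tryptophanyl-tRNA synthetase, had 7.09, 7.20 and 7.28 at galactose Day 4 against 6.35 on the control, a difference of 0.84 (0.37 to 1.31, adjusted p = 0.0581). Aars1, the alanyl enzyme, had 7.25, 7.26 and 7.21 at galactose Day 4 against 6.40 (0.84, adjusted p = 0.0749), and Nars1, the asparaginyl enzyme, had 8.12, 8.05 and 7.54 against 6.94 (0.96, adjusted p = 0.0877). In each of these the control array was the lowest of all 13, as in 5 of the 22 members and 19.5% of all genes. Without galactose Day 6 replicate 1 Aars1 and Wars1 passed at Day 4 as well (adjusted p = 0.0437 and 0.0499), and with replicate 1 of both days left out 4 genes rose at Day 4, Rars1, Wars1, Aars1 and Cars1 (adjusted p = 0.0276, 0.035, 0.0356 and 0.0487). These fits called 5.59% and 9.77% of all genes at Day 4, against 3.78% with every array.

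**Figure D1:**
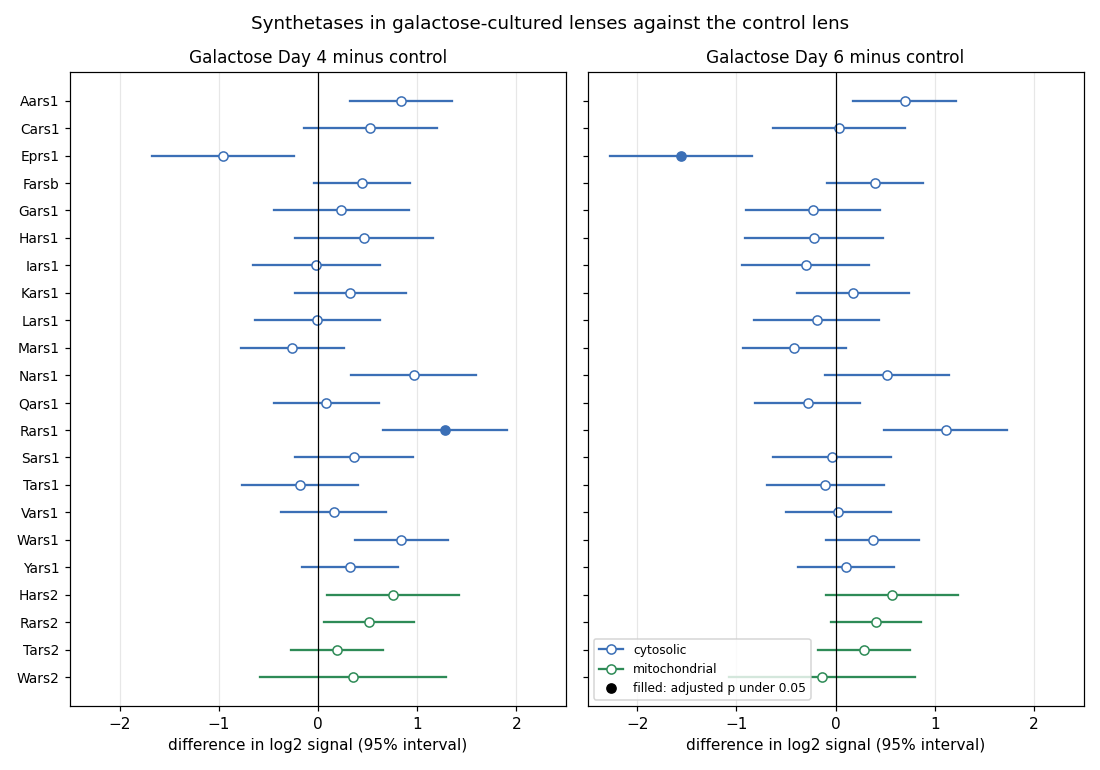
Difference in log2 signal from the control array, with its 95% interval, of the 22 kept synthetases at galactose Day 4 (left) and Day 6 (right); cytosolic genes are blue, mitochondrial genes green, and filled points passed adjusted p under 0.05. The filled points are Rars1 at 1.28 in the left panel and Eprs1 at -1.56 in the right panel.

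Over the whole set, 13 of 18 cytosolic and all 4 kept mitochondrial genes were higher at galactose Day 4 than on the control by their means, as were 54.7% of all genes. Rars2 and Tars2 were below 5 on the control and were kept only through other arrays, so their sign is partly set by the filter. Of all 15 mitochondrial genes with a probe set, 11 were higher at Day 4, with a median of 0.22, and Lars2, Pars2, Sars2 and Yars2 were lower. The cytosolic median was 0.32 and that of the 4 kept mitochondrial genes 0.43, with 0.05 over all genes, and both stayed positive after quantile normalization (0.29 and 0.37) and after centring each array on its median (0.28 and 0.39). In 13 members every Day 4 array lay above the control, and in 3, Eprs1, Mars1 and Tars1, every one lay below it, against 38% and 29.4% of all genes. At an unadjusted p under 0.05 there were 7 of 22 members at Day 4, where 22% of all genes were.

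At galactose Day 6 the cytosolic genes were divided evenly, with 9 of 18 above the control and a median of -0.004, next to -0.01 over all genes. The 4 kept mitochondrial genes had a median of 0.35, and all 15 with a probe set had a median of 0.20 with 10 positive. Every Day 6 array lay above the control in 9 members and below it in 4, Eprs1, Iars1, Mars1 and Qars1, where 33% and 33.3% of all genes did. At an unadjusted p under 0.05 there were 3 of 22 members and 23.7% of all genes.

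The multisynthetase complex did not move as one. Of its 7 enzymes in the list, Rars1 was called higher at Day 4 and Eprs1 lower at Day 6, Iars1, Kars1, Lars1, Mars1 and Qars1 were called in neither, and the median differences were -0.01 at Day 4 and -0.28 at Day 6. The 3 scaffold proteins of the complex, Aimp1, Aimp2 and Eef1e1, were all above the control at Day 4, with a median of 0.70, and at Day 6, with a median of 0.55, and none was called. Aimp1, the scaffold to which Rars1 binds, had 7.22, 7.07 and 6.94 at galactose Day 4 against 6.38 on the control. By structural class, the 11 class I and 10 class II genes had Day 4 medians of 0.32 and 0.40, with Eprs1 counted in neither because its chain holds an enzyme of each class.

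Galactose Day 6 lenses were then set against galactose Day 4 lenses, which asks what 2 more days in galactose changed. No member passed (0 of 22, and 0% of all genes in either direction, by limma), but 17 of 18 cytosolic genes and 3 of 4 mitochondrial genes were lower at Day 6 by their means, as were 62.4% of all genes. The cytosolic median was -0.25, against -0.06 over all genes, and it was -0.18 after quantile normalization and -0.19 after median centring, where 16 of 18 were lower. At an unadjusted p under 0.05 there were 5 members, Wars1, Hars1, Eprs1, Cars1 and Nars1, all lower at Day 6, where 5.36% of all genes were.

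Wars1 had 6.64, 6.85 and 6.68 at galactose Day 6 against 7.09, 7.20 and 7.28 at galactose Day 4, and the days did not overlap (-0.47, 95% interval -0.80 to -0.14, limma adjusted p = 0.883). Hars1, the cytosolic histidyl enzyme, had 6.65, 6.09 and 6.44 against 7.44, 7.02 and 6.76 (-0.68, -1.17 to -0.19, limma adjusted p = 0.883). Sars1 and Qars1, the seryl and glutaminyl enzymes, also had every Day 6 array below every Day 4 array. These 4 of 22 members compare with 8.19% of all genes, and 0 members lay wholly above, compared with 2.61%. Tars1, the threonyl enzyme, was the exception among the cytosolic genes at 0.08 (-0.34 to 0.49).

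**Figure D2:**
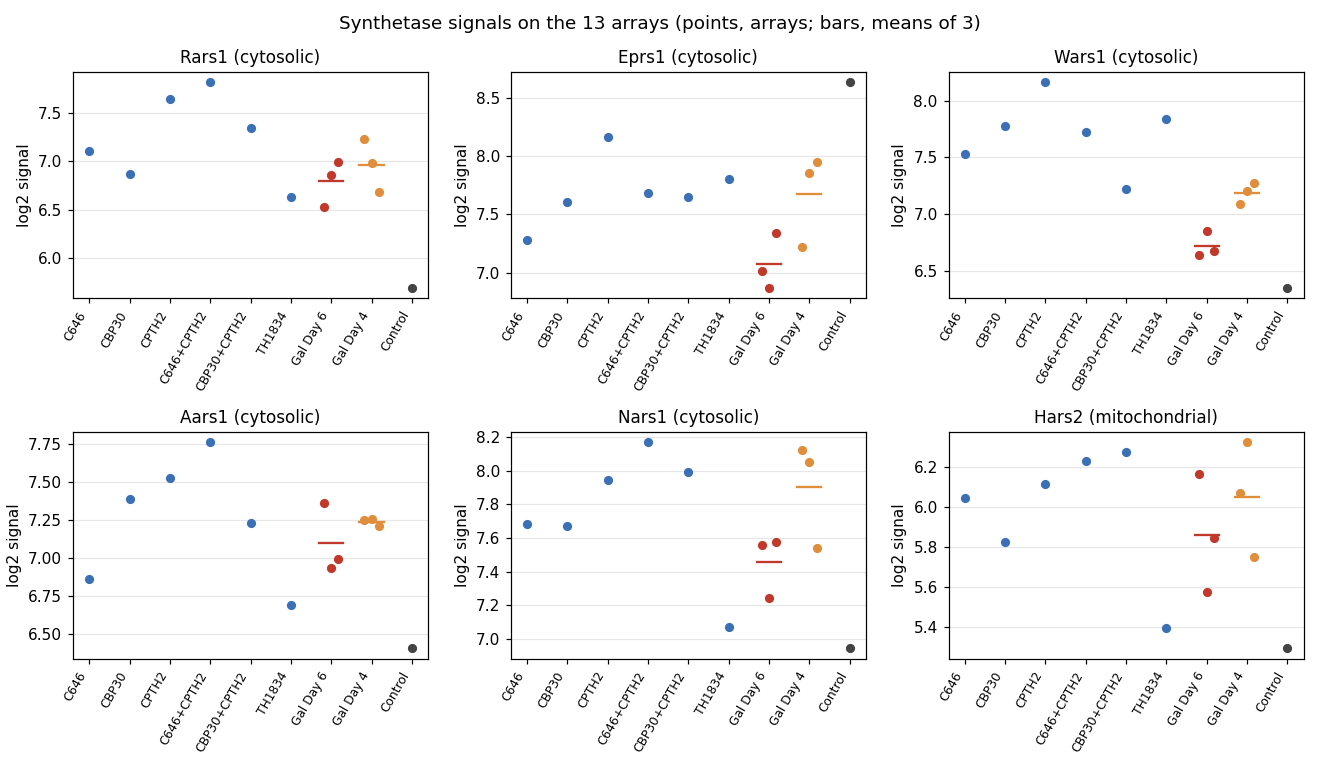
Log2 signal (y axis, a separate scale for each gene) of 6 synthetases on the 13 arrays: single inhibitor arrays in blue, galactose Day 6 in red, galactose Day 4 in orange and the control in grey, with bars at the means of 3 arrays. The control is the lowest array for Rars1, Wars1, Aars1, Nars1 and Hars2 and the highest for Eprs1. Over all genes it is the lowest in 19.5% and the highest in 13.1%.

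The mitochondrial enzymes could be followed only in part. The 4 kept genes were Hars2, Rars2, Tars2 and Wars2, of which Rars2 and Tars2 reached 5 on 6 and 5 of 13 arrays. Hars2 had 6.07, 6.32 and 5.75 at galactose Day 4 and 6.16, 5.58 and 5.85 at Day 6, against 5.30 on the control, with differences of 0.75 (adjusted p = 0.171) and 0.57 (adjusted p = 0.28). Its gene lies next to Hars1 on chromosome 18 of GRCr8, with 0 protein-coding genes between them. Every galactose array of Hars2 lay above the control, whereas Hars1 lay above it at all 3 Day 4 arrays and on both sides at Day 6.

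Rars2 had 4.88, 4.95 and 5.01 at galactose Day 4 and 4.74, 4.82 and 4.95 at Day 6, against 4.43 on the control (0.51 and 0.40, adjusted p = 0.174 and 0.26). Rars2 and Rars1, which charge arginine in the 2 compartments, were thus both above the control on all 6 galactose arrays, by a smaller difference in Rars2. Wars2 was scattered, with 6.30, 5.76 and 5.49 at galactose Day 4 and 4.74, 5.75 and 5.57 at Day 6, against 5.49 on the control. Tars2 was at 4.94 to 5.20 on the 6 galactose arrays against 4.80.

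The 12 members below the limit on every array were Farsa and 11 mitochondrial genes, Aars2, Cars2, Ears2, Fars2, Lars2, Mars2, Nars2, Pars2, Sars2, Vars2 and Yars2. In a fit without the filter the largest of their differences from the control were those of Vars2, at 0.85 on Day 4 and 1.05 on Day 6 (adjusted p = 0.491 and 0.329), and none was called in any comparison. Vars2 charges valine. Farsa and Farsb encode the subunits of the cytosolic phenylalanyl enzyme, and Farsb, which was kept, had 5.60, 5.39 and 5.42 at galactose Day 4 against 5.03 (0.44, adjusted p = 0.268).

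No direction held between the cytosolic and mitochondrial sets at Day 4, since the mean difference of the cytosolic genes was lower by 0.15 than that of the 4 kept mitochondrial genes (-0.15 ± 0.14, SD over the 3 arrays) but higher by 0.04 when every gene with a probe set was used. In 14 pairs of a cytosolic and a mitochondrial gene for the same amino acid, the cytosolic difference was the larger in 8 at Day 4 and in 7 at Day 6. Both genes were kept in 4 of the pairs. The kept mitochondrial genes averaged 5.57, 5.50 and 5.30 at galactose Day 4 and 5.15, 5.31 and 5.39 at Day 6, against 5.0045 on the control. The cytosolic genes averaged 7.13, 7.24 and 7.12 at galactose Day 4 and 6.81, 6.80 and 6.99 at Day 6, against 6.86 on the control.

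**Figure D3:**
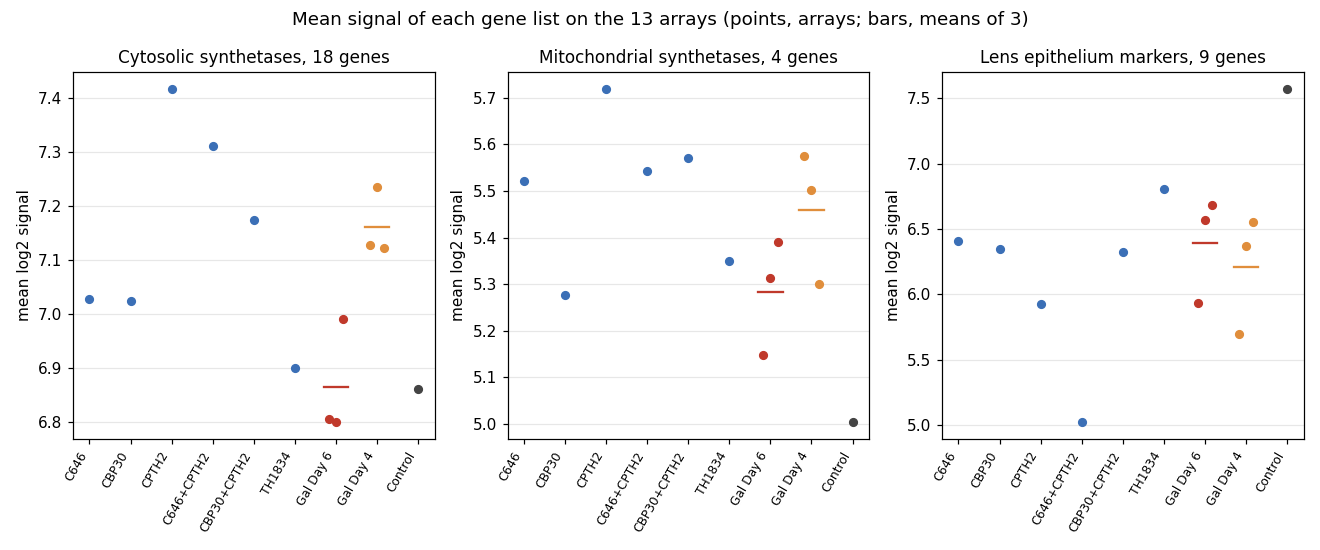
Mean log2 signal (y axis, a separate scale for each panel) of the 18 kept cytosolic synthetases, the 4 kept mitochondrial synthetases and 9 lens epithelium markers on the 13 arrays, with bars at the means of 3 arrays. The cytosolic mean is highest on the CPTH2 array at 7.42 and the C646+CPTH2 array at 7.31, and the epithelium mean is lowest on the C646+CPTH2 array at 5.02.

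The inhibitor arrays were compared with galactose Day 6, which asks whether acetyltransferase inhibition in opaque lenses moved these genes. No member passed the adjusted threshold with any of the 6 treatments (limma). The shares of all genes that rose and fell were 0% and 0% with C646, CBP30 and CBP30+CPTH2, 0.0295% and 0% with CPTH2, 0.634% and 0.221% with C646+CPTH2, and 0.0443% and 0.0148% with TH1834. At an unadjusted p under 0.05 the members numbered 1 with C646 (4.06% of all genes), 2 with CBP30 (15.8%), 10 with CPTH2 (12.7%), 7 with C646+CPTH2 (16.5%), 3 with CBP30+CPTH2 (20.8%) and 4 with TH1834 (14%). The 10 of 22 with CPTH2 and the 7 of 22 with C646+CPTH2 stood above the share of all genes, and those with C646+CPTH2 were Wars1, Rars1, Aars1, Sars1, Nars1, Iars1 and Hars1.

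Wars1 was the member that differed by the most over the 6 treatments together. It had 7.53 with C646, 7.77 with CBP30, 8.16 with CPTH2, 7.72 with C646+CPTH2, 7.22 with CBP30+CPTH2 and 7.84 with TH1834, against 6.64, 6.85 and 6.68 at galactose Day 6. Every inhibitor array lay above every galactose Day 6 array, and 5 of the 6 also lay above all 3 galactose Day 4 arrays. The differences were 0.81, 1.05, 1.44, 1.00, 0.50 and 1.12 in the same order, with adjusted p = 0.995, 0.105, 0.0733, 0.0705, 0.213 and 0.148.

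A comparison of all 6 inhibitor arrays as a group with galactose Day 6 was added after these values were seen. Wars1 differed by 0.99 ± 0.18 (SE, 95% interval 0.61 to 1.36, limma adjusted p = 0.0671) and was second of 6778 genes in the order of p-values, and 0% of all genes rose and 0.0148% fell. At an unadjusted p under 0.05 there were 4 members, Wars1, Eprs1, Iars1 and Wars2, all higher with inhibitors, and 17% of all genes. Iars1, the isoleucyl enzyme, was the other member whose inhibitor arrays all lay above galactose Day 6, as 6.89% of all genes did, and 0 members lay wholly below, as 2.07% did. Iars1 had 6.54, 6.67, 7.07, 6.93, 6.67 and 6.65 with the inhibitors in the order above, against 6.47, 5.82 and 6.38 at galactose Day 6.

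Eprs1, the gene called lower at galactose Day 6 than on the control of 4 days, was higher on most inhibitor arrays than at galactose Day 6. It had 7.28, 7.60, 8.17, 7.68, 7.64 and 7.81 in the same order, against 7.02, 6.87 and 7.34 at galactose Day 6, and the C646 array lay within the galactose range. None reached the control's 8.63. The pooled difference was 0.62 (95% interval 0.19 to 1.06, adjusted p = 0.163), and the nearest single treatment was CPTH2 at 1.09 (0.37 to 1.81, adjusted p = 0.311). Wars2, the mitochondrial counterpart of Wars1, had 6.02, 5.87, 6.31, 5.93, 5.72 and 6.34, against 4.74, 5.75 and 5.57, a pooled difference of 0.68 (0.18 to 1.17, adjusted p = 0.179) in which the array of galactose Day 6 replicate 1 was far below the others.

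**Figure D4:**
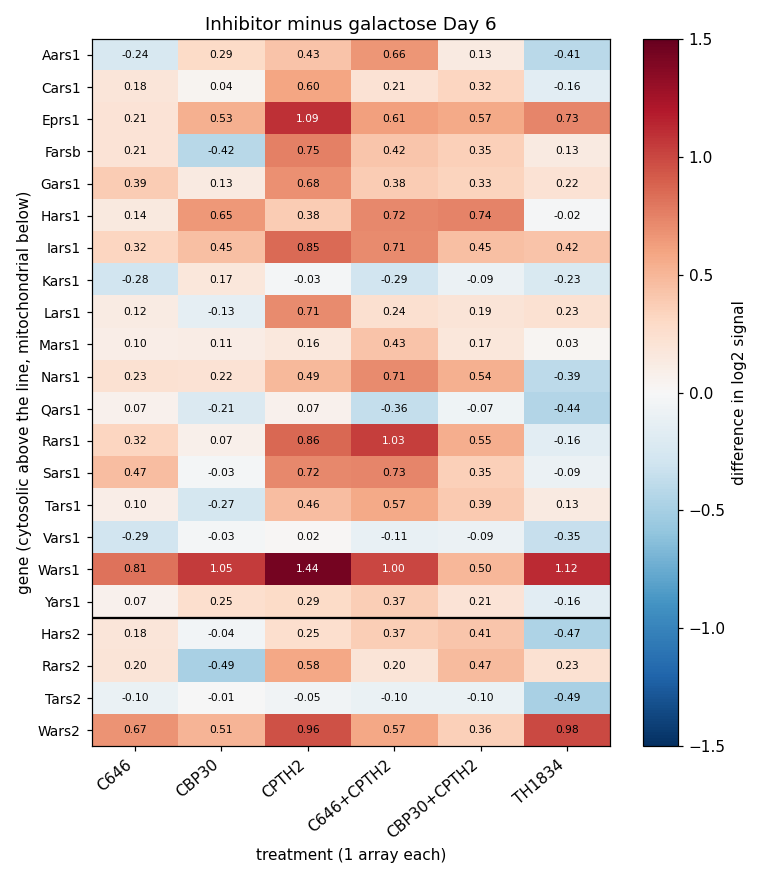
Difference in log2 signal between each inhibitor array and the mean of the 3 galactose Day 6 arrays for the 22 kept synthetases (colour and printed values; red is higher with the inhibitor). Wars1 is higher in all 6 columns, by 0.50 to 1.44, and the CPTH2 column is positive for 17 of 18 cytosolic genes.

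Among the arrays of 6 days the cytosolic genes were highest where CPTH2 was present. Their mean was 7.42 with CPTH2, 7.31 with C646+CPTH2 and 7.17 with CBP30+CPTH2, and 7.03 with C646, 7.02 with CBP30 and 6.90 with TH1834, against 6.81, 6.80 and 6.99 at galactose Day 6. With CPTH2 17 of 18 cytosolic genes were above galactose Day 6, with a median of 0.54, while the median of all genes was itself shifted by 0.17. After quantile normalization or median centring 14 of 18 were above, with medians of 0.34 and 0.35. The all-gene median was also shifted by 0.15 with CBP30+CPTH2, by 0.11 with TH1834 and by 0.11 for all inhibitors together.

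CPTH2 was given alone and on top of C646 and of CBP30, so its addition could be examined on 3 backgrounds, in a comparison also added after the values were seen. With CPTH2 17 of 18 cytosolic genes were above galactose Day 6, with C646+CPTH2 15 of 18 were above C646, and with CBP30+CPTH2 12 of 18 were above CBP30, where 70.4%, 41.6% and 57.7% of all genes were higher. The cytosolic medians were 0.54, 0.28 and 0.12, against 0.17, -0.06 and 0.09 over all genes. Averaged over the 3 backgrounds, 16 of 18 cytosolic genes were positive with a median of 0.37 (0.06 over all genes), and 15 of 18 with medians of 0.29 and 0.30 after quantile normalization and median centring.

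No member passed in that comparison (0.0885% of all genes rose and 0% fell, limma), and 9 of 22 members had an unadjusted p under 0.05, all of them higher, where 14.5% of all genes did. Rars1 had 7.65, 7.82 and 7.34 with CPTH2, C646+CPTH2 and CBP30+CPTH2, against 6.53, 6.86 and 6.99 at galactose Day 6, 7.11 with C646 and 6.87 with CBP30 (0.68, 95% interval 0.27 to 1.10, adjusted p = 0.178). The 3 arrays with CPTH2 were its 3 highest. Farsb had 6.18, 5.84 and 5.78, against 5.51, 5.50 and 5.26 at galactose Day 6, 5.63 with C646 and 5.01 with CBP30 (0.58, adjusted p = 0.162). Tars1 and Rars2 followed with 0.53 and 0.52 (adjusted p = 0.241 and 0.168).

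In 6 members, Cars1, Farsb, Mars1, Nars1, Rars1 and Tars1, all 3 arrays with CPTH2 lay above all 6 arrays of galactose Day 6, C646, CBP30 and TH1834, as 5.65% of all genes did, and in 0 members below, as 0.929% did. The highest of the 13 arrays was 1 with CPTH2 in 13 of 22 members, and in 34.1% of all genes. It was CPTH2 alone in 6 members (9.68% of all genes), C646+CPTH2 in 7 (7.8%) and CBP30+CPTH2 in 0 (16.6%). Kars1, Qars1 and Vars1, the lysyl, glutaminyl and valyl enzymes, had differences of -0.10, -0.07 and 0.05 on adding CPTH2. In each of the 14 cytosolic and mitochondrial pairs the cytosolic gene had the larger difference from galactose Day 6 with CPTH2 alone. This was so in 12 pairs with C646+CPTH2, 10 with CBP30+CPTH2, 9 with C646, 10 with CBP30 and 10 with TH1834. In these pairs 10 of the mitochondrial partners had signals below the limit. With CPTH2 alone the all-gene median was 0.17 over the kept genes but -0.01 without the filter, so the shift differed between high and low signals. Its part in the pair counts was not tested.

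The arrays with CPTH2 differed in other markers too. The epithelium mean was 5.93 with CPTH2, 5.02 with C646+CPTH2 and 6.33 with CBP30+CPTH2, against 5.93, 6.57 and 6.68 at galactose Day 6, 6.41 with C646 and 6.35 with CBP30. Averaged over the 3 backgrounds, all 9 epithelium markers were lower on adding CPTH2, with a median of -0.59 and none called, where 59.5% of all genes were higher. The backgrounds differed in this. Pax6, Pdgfra, Cdh2 and Sox2 were higher with CBP30+CPTH2 than with CBP30, and the other kept markers were lower. With CPTH2 alone 1 of the 9 was above galactose Day 6. The macrophage marker Cd68, which also marks lysosomes of other cells, was 6.87, 7.51 and 6.48 on these 3 arrays, against 4.73, 5.21 and 4.32 at galactose Day 6, 5.84 with C646 and 5.59 with CBP30. Lyz2, which encodes lysozyme, was the other kept macrophage marker, but only its control array, at 5.05, reached the limit of 5. Lyz2 had 2.73, 3.44 and 2.87 on the arrays with CPTH2. It had 3.56, 4.33 and 3.78 at galactose Day 6, 3.09 with C646 and 3.23 with CBP30. All 3 arrays with CPTH2 were below every galactose Day 6 array in Lyz2. Ptprc, which marks all leukocytes, was at 1.61 to 2.09 on the 13 arrays, and 7 of the 9 macrophage markers were below 5 on each. The part of these markers' cells in the synthetase differences was not tested.

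TH1834 left the cytosolic genes near galactose Day 6, with 8 of 18 higher and a median of -0.05 (-0.20 after quantile normalization and -0.18 after median centring). The members at an unadjusted p under 0.05 were Wars1, Eprs1, Wars2 and, lower, Tars2 at 4.60 against 4.94, 5.11 and 5.20. Wars1 and Wars2 had 7.84 and 6.34 with TH1834. These lay further from the control's 6.35 and 5.49 than the galactose Day 6 means, 6.72 and 5.35. Aars1, Nars1 and Hars2 had 6.69, 7.07 and 5.40 with TH1834, each the closest inhibitor array to the control's 6.40, 6.94 and 5.30. Their differences from galactose Day 6 were -0.41, -0.39 and -0.47 (adjusted p = 0.458, 0.571 and 0.515).

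C646 and CBP30 target the same acetyltransferases, and given alone they had cytosolic medians of 0.16 and 0.12 over galactose Day 6, with 0.09 and 0.07 over all genes. The C646 median was 0.06 after quantile normalization and 0.07 after median centring, and the CBP30 median 0.07 and 0.02. Farsb and Rars2 had 5.01 and 4.35 with CBP30, against 5.51, 5.50 and 5.26 and 4.74, 4.82 and 4.95 at galactose Day 6, and each was the lowest of the 13 arrays (-0.42 and -0.49, adjusted p = 0.384 and 0.289). TH1834, C646+CPTH2 and CBP30+CPTH2, grouped as effective on opacity, were also set against C646, CBP30 and CPTH2. The spread in this comparison includes that between the different treatments of a group. CPTH2 alone, to which the study gives a slight effect, was counted with the ineffective treatments. With CPTH2 left out, 0 members were called. No member passed in the comparison of 3 with 3 arrays (0% of all genes in either direction, limma), 0 had an unadjusted p under 0.05 where 4.2% of all genes did, and the differences of the 22 members lay between -0.26 and 0.26 with a median of -0.03. The 95% intervals ran as far as -0.66 to 0.20 for Wars1 and -0.56 to 0.67 for Rars1.

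Members with and without the motif TGATGCAA in their promoter are set side by side as a description, without a test. Over the control at galactose Day 4 the 7 genes with the motif had a median of 0.32 and 4 of 7 positive differences, and the 9 kept cytosolic genes with an entry but no motif had a median of 0.32 and 7 of 9. On adding CPTH2 the medians were 0.39, with 7 of 7 positive, and 0.36, with 7 of 9. Wars1 and Eprs1 were among the genes without it. Of 24 kept ATF4 target genes that are not synthetases, 3 rose at galactose Day 4, Atf3, Ddit3 and Slc3a2, and at Day 6 Atf3 and Slc3a2 rose and Chac1 fell, where 2.33% of all genes rose at Day 4 and 2.8% rose and 2.69% fell at Day 6. Atf3 was at 3.82 on the control and was kept only through other arrays, so its direction is partly set by the filter. The median of these 24 genes was 0.18 at Day 4, -0.18 at Day 6 and 0.23 on adding CPTH2, of which 15, 10 and 19 genes were positive, next to 54.7%, 49.2% and 59.5% of all genes.

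Ddit3, a stress-induced transcription factor that acts with ATF4 on shared targets, had 10.60, 10.49 and 10.50 at galactose Day 4 and 10.03, 9.29 and 9.97 at Day 6, against 9.22 on the control. Its Day 6 arrays lay below its Day 4 arrays, as in Wars1 and Hars1 and in 8.19% of all genes. With CPTH2, C646+CPTH2 and CBP30+CPTH2 it had 10.54, 10.90 and 10.20, against 10.25 with C646, 9.57 with CBP30 and 8.98 with TH1834. Atf4 itself did not fall between the days. It had 9.94, 10.18 and 10.35 at galactose Day 4 and 10.14, 10.34 and 10.37 at Day 6, against 9.84 on the control. Atf4 was at 10.21 with CPTH2 and 10.26 with C646+CPTH2, within the Day 6 range, and at 10.63 with CBP30+CPTH2. It was at 10.04 with C646, 10.02 with CBP30 and 10.20 with TH1834. The cytosolic translation elongation factors served as a contrast. Of the 4 kept genes, Eef1a1, Eef1d, Eef1g and Eef2, 0 were called with galactose, and their median was 0.14 at Day 4 and 0.06 on adding CPTH2.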

How the data were processed

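The deposited values are log2 signals per probe set, which the authors preprocessed in R. The background correction, normalization and probe summary are not given in the sources used here, and the values were used as deposited. Of 36685 probe sets 18511 carry 1 gene name, and the probe set with the highest mean stood for its gene. A second Qars1 probe set, shared with another gene, was not used. All 6778 kept genes were fitted together in limma 3.58.1 under R 4.3.3, with 1 group per condition, two-sided tests and Benjamini-Hochberg adjustment at 0.05. The fit had 4 residual and 4.97 prior degrees of freedom. Effective and ineffective treatments formed groups of 3 arrays, CPTH2 alone being counted as ineffective despite the slight effect the study gives it, and all inhibitors together formed a group of 6. These further fits had 8 and 9 residual and 5.61 and 5.72 prior degrees of freedom. In them different treatments stood as the replicates of a group. The fits were tested on simulated data. Counts over lists came from pandas 2.3.3 and numpy 2.4.6 under Python 3.11.15, and figures from matplotlib 3.10.9. Promoter windows were 300 bases long. The sites of 2 of the 7 promoters with the motif are not shown here. Any synthetase could be named, and other lists were limited to a few members each. The synthetases, gene lists and comparisons were chosen with earlier results of these data known. Alternatives changed the filter, the scaling, the probe sets, the variance model, the replicate block and the arrays included. The number of arrays limits the precision.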

Additional observations from a re-analysis of the deposited data

How the results depend on the processing

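Rars1 at Day 4 and Eprs1 at Day 6 kept their direction under each alternative run. The count of synthetases called at galactose Day 4 against the control was 1. It was 0 without the filter on low signals and when only the Day 4 arrays gave the spread, 4 with replicate 1 of both days left out, and 0 to 3 when a single galactose array was left out. The count at galactose Day 6 was 1. It was 0 without the filter and with the spread of the Day 6 arrays alone, 2 with a mean signal of at least 5, after quantile normalization, after median centring, with limma's trend and with replicate 1 of both days left out, and 0 to 2 when a single array was left out. Rars1 was the second gene in each of these (with the trend its adjusted p was 0.05 after rounding). With C646+CPTH2 the count of 0 was 2 without replicate 1 of both days (Wars1 and Aars1, adjusted p = 0.0364 and 0.0491), in a fit that called 402 of 6778 genes, against 58 with every array. The numbers of the galactose replicates do not pair the lenses by the labels, and the correlations of same-numbered arrays were 0.34, 0.08 and 0.25. With the replicate block 1 member was called with C646+CPTH2, Wars1 (adjusted p = 0.0473), among 230 genes, and Rars1 and Eprs1 were called as before. For all inhibitors together the count of 0 was 1 with the trend (Wars1, adjusted p = 0.0455), and the adjusted p of Wars1 lay between 0.0455 and 0.245 over the alternatives. The mean Day 4 difference of cytosolic over mitochondrial members was -0.15, and 0.0355 without the filter, which adds low-signal genes. The cause of the other changes was not tested. Of 213 values under alternatives, 180 kept their direction and their call, or stayed within the limit set for a count or the spread between arrays. Many of the 180 were counts of 0 in comparisons that called few or no genes at all, so they had little room to change. A count could also stay the same while the gene changed. Without galactose Day 6 replicate 1 the gene called at Day 6 was Rars1, higher, in place of Eprs1, lower. By rank, Rars1 was in the upper 5% on all 3 Day 4 arrays and Eprs1 in the lower 5% on all 3 Day 6 arrays. Precision is limited by the single control and inhibitor arrays.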
